A study of Mus musculus with 12 samples.

Results

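The genes described here are 8 genes of the basal cells and neuronal progenitors of the olfactory epithelium, *Krt5*, *Krt14*, *Trp63*, *Kit*, *Lgr5*, *Sox2*, *Neurog1* and *Neurod1*. They were taken by name, as the probe sets annotated to one of these symbols alone, from the 19938 genes with a probe set of their own on the array. All 8 were found, each with 1 probe set. Each of 6 ΔJ and 6 wild-type mice gave RNA of its main olfactory epithelium (MOE) to 1 Affymetrix Mouse Gene 1.0 ST array. ΔJ mice lack both copies of the J element, an enhancer of class I odorant receptor (OR) genes on chromosome 7, and their wild-type littermates carry it. All ΔJ mice descend from 1 founder, line #8, made by CRISPR-Cas9 editing of B6C3F1 eggs, a cross of C3H/HeSlc and C57BL/6NCrSlc. For the array work the paper used heterozygotes of the second backcross generation to C57BL/6NCrSlc, and the ΔJ mice are homozygous. The labels give C57BL/6 as the strain of both genotypes. The ΔJ group held 3 males and 3 females, 5 of them at postnatal day 30 and 1 at day 33. The wild-type group held 2 males and 4 females, 4 at day 30 and 2 at day 33.

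The MOE replaces its olfactory sensory neurons (OSNs) throughout life from 2 kinds of basal cell. Horizontal basal cells lie flat on the basal lamina, rarely divide and serve as a reserve after injury. Globose basal cells above them divide actively and give rise to immediate neuronal precursors, immature OSNs and then mature OSNs, each of which expresses 1 OR gene. The comparison of ΔJ with wild-type mice therefore sets the genes of cells that have not yet chosen a receptor beside a deletion that acts on receptor genes.

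In the horizontal basal cell, *Krt5* (chr15:101707069-101712905) and *Krt14* (chr11:100203162-100207510) encode the keratins that pair into its intermediate filaments, and *Trp63* (chr16:25683763-25892088) encodes p63, the transcription factor that keeps it in reserve. In the globose basal cell, *Kit* (chr5:75574987-75656722) encodes the receptor tyrosine kinase for stem cell factor, *Lgr5* (chr10:115450314-115587780) a receptor for R-spondins that raises Wnt signalling, and *Sox2* (chr3:34649995-34652461) a transcription factor of neural progenitors that sustentacular cells also express. *Neurog1* (chr13:56250478-56252180) and *Neurod1* (chr2:79452637-79456636) encode basic helix-loop-helix transcription factors of the neuronal precursors. Coordinates are those of RefSeq on GRCm38.p6.

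RefSeq windows of the 250 bases before the gene start were at hand for 6 of the 8 genes, and none matched *Trp63* or *Lgr5*. The window listed for *Krt14* lies inside the annotated span of the gene and was not described. Basic helix-loop-helix factors such as Neurog1 and Neurod1 bind E-boxes, here searched as CANNTG, which reads as the same pattern on both strands. At least 1 E-box was present in 66.2% of 32841 windows of this length, and 2 or more in 31.8%. The windows of *Krt5* (chr15:101712906-101713155, minus strand), *Neurog1* (chr13:56252181-56252430, minus strand), *Neurod1* (chr2:79456637-79456886, minus strand) and *Sox2* (chr3:34649745-34649994, plus strand) are printed 5′ to 3′ to show a keratin gene beside the 3 genes that were called between replicates 4 to 6 and 1 to 3, with the E-boxes in capitals.
Krt5: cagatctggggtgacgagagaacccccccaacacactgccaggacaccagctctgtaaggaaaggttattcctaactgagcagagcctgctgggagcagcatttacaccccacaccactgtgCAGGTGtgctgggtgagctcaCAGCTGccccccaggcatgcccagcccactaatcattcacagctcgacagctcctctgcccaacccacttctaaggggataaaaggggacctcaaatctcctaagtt
Neurog1: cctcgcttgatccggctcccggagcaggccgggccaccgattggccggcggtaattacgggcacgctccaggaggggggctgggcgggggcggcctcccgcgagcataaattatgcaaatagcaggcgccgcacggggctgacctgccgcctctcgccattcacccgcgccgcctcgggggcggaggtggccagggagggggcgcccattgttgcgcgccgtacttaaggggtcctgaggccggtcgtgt
Neurod1: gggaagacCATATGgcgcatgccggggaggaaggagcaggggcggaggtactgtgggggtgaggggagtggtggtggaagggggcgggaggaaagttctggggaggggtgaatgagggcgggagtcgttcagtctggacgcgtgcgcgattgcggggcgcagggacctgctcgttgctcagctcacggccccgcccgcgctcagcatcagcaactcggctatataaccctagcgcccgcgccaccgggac
Sox2: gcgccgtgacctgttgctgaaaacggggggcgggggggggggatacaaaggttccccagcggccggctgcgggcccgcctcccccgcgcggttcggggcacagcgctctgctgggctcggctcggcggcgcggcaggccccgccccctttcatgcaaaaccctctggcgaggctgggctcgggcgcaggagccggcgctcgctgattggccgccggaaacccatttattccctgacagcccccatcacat
The *Krt5* window held 2 E-boxes, CAGGTG and CAGCTG, and the *Neurod1* window held 1, CATATG. *Neurog1*, *Sox2* and *Kit* held none in their windows. The bases G and C made up 56% of the *Krt5* window, 71.2% of that of *Neurog1*, 67.6% of *Neurod1*, 70.8% of *Kit* and 72% of *Sox2*, against a median of 52.4% over all windows. A match is a description of these letters, and its use in these cells was not measured.

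Levels are given as log2 signal minus the 75th percentile of the same array, so a level of 0 equals that percentile and a difference of 1 is a doubling. Signals of different probe sets have no common scale, so the genes were compared between mice and not with each other. As a rough gauge of background, since probe sets differ, the mean levels of the Y-linked genes *Kdm5d*, *Uty* and *Eif2s3y* in the 7 females were -3.72, -4.69 and -4.99, and the lowest level of any of the 8 genes in any mouse was -1.49. The 8 markers of mature OSNs, the neurons that the MOE label implies, had a mean level of 3.26 to 3.52 in ΔJ and 3.40 to 3.50 in wild-type mice, and no other tissue was measured for comparison. *Olfr544*, a class I OR gene next to the J element, checked the genotype labels, with -3.55 to -3.27 in the 6 ΔJ mice and -1.75 to -1.41 in the 6 wild-type mice. The arrays of replicates 4 to 6 of both genotypes had a larger spread of signals than those of replicates 1 to 3 (SD over probe sets 2.20 to 2.23 and 2.07 to 2.13), and all mice of day 33 were among replicates 4 to 6.

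No difference between ΔJ and wild-type mice passed the test for any of the 8 genes. With limma's test adjusted over all 35556 probe sets, 0 of 8 were called, against 0.135% of all probe sets, and their adjusted p-values were 0.993 to 0.997. At an unadjusted p under 0.05, 0 of 8 passed, against 3.33% of all probe sets. None of the 8 changed by more than 1.3-fold, against 2.91% of all probe sets, and the ranges of the genotypes overlapped for all 8, whereas they did not overlap for 0.301% of all probe sets. Of the 8 log2 fold changes 6 were below 0, as were 60.2% of those of all probe sets, and the median was -0.03 for both. The 95% intervals of the 8 together ran from 74.6% to 135% of the wild-type level. This fit left out the array set, the grouping of replicates by spread given above, so differences between the sets stayed in its error. With the array set as a block the fold changes were the same and 0 of 8 were called. The unadjusted limma p went from 0.673 to 0.507 for *Neurod1*. For *Sox2* it went from 0.141 to 0.042, with an adjusted p of 0.617. In that fit 8.04% of all probe sets had an unadjusted p under 0.05.

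**Figure D1:**
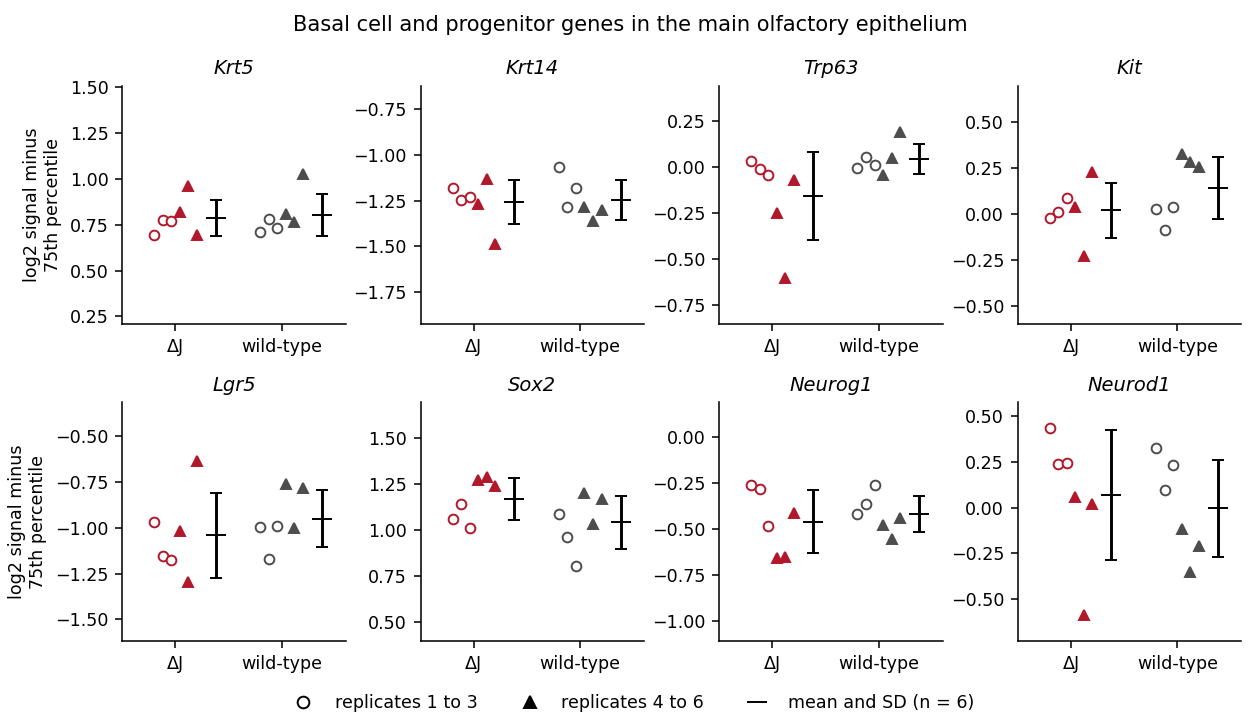
Level of each gene (log2 signal minus the 75th percentile of the array) in each of 6 ΔJ (red) and 6 wild-type (grey) mice, with open circles for replicates 1 to 3, filled triangles for replicates 4 to 6, and bars for the mean and SD. Every panel spans the same range of log2 units, and the 2 genotypes overlap for all 8 genes.

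The keratins of the horizontal basal cell had nearly the same level in both genotypes. *Krt5* had a level of 0.69 to 0.96 in ΔJ mice (median 0.77) and of 0.71 to 1.03 in wild-type mice (median 0.77). Its log2 fold change was -0.02 (SE 0.071, 95% interval -0.17 to 0.14), the narrowest interval of the 8. *Krt14* had -1.49 to -1.13 in ΔJ mice (median -1.24) and -1.36 to -1.07 in wild-type mice (median -1.29). The log2 fold change of *Krt14* was -0.01 (SE 0.074, 95% interval -0.17 to 0.15), and its lowest mouse was ΔJ replicate 6.

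*Trp63* had the largest difference of the 8 genes. Its levels in ΔJ replicates 1 to 6 were 0.03, -0.01, -0.05, -0.25, -0.61 and -0.07, with a median of -0.06. In wild-type replicates 1 to 6 they were -0.01, 0.05, 0.01, -0.04, 0.05 and 0.19, with a median of 0.03. In 4 of 6 ΔJ mice *Trp63* was below every wild-type mouse, and the other 2 lay inside the wild-type range. The log2 fold change was -0.20 (SE 0.10, 95% interval -0.42 to 0.02) with an unadjusted p of 0.0689 and an adjusted p of 0.993 in limma. For the same difference, an exact two-sided permutation test of the 924 splits of the mice gave p = 0.0303, unadjusted and the smallest of the 8 genes. It was -0.38 in replicates 4 to 6 and -0.03 in replicates 1 to 3, and the interaction of genotype with these sets did not pass (adjusted p = 0.909 in limma). Without ΔJ replicate 5, which had the lowest *Trp63* level, the log2 fold change was -0.11. p63 also marks squamous epithelium, and the mean level of 10 squamous markers was -2.99 to -2.42 in ΔJ and -2.85 to -2.48 in wild-type mice. Of these markers, 1 had a mean level below that of *Kdm5d* in females, and their part in the *Trp63* values was not tested.

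Of the globose basal cell genes, *Kit* and *Lgr5* had slightly lower and *Sox2* slightly higher means in ΔJ mice, each within the spread of the mice. *Kit* had -0.23 to 0.23 in ΔJ mice (median 0.02) and -0.09 to 0.33 in wild-type mice (median 0.15). Its log2 fold change was -0.12 (SE 0.094, 95% interval -0.32 to 0.08). In replicates 4 to 6 it was -0.28 and in replicates 1 to 3 it was 0.03, and the interaction did not pass here either (adjusted p = 0.909 in limma). Mast cells and melanocytes also express *Kit*. The 10 mast cell markers had a mean of -3.30 to -3.14 in ΔJ and -3.21 to -2.97 in wild-type mice. Of these 10, 3 had a mean level below that of *Kdm5d* in females, -3.72, so this list lay near the rough gauge of background. The 8 melanocyte markers, 1 of them below that gauge, had a mean of -2.68 to -2.35 in ΔJ and -2.60 to -2.24 in wild-type mice. The part of either cell type in the *Kit* values was not tested.

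*Lgr5* had -1.30 to -0.63 in ΔJ mice (median -1.09) and -1.17 to -0.76 in wild-type mice (median -0.99). ΔJ mice held both the lowest *Lgr5* level, in replicate 5, and the highest, in replicate 6, and the log2 fold change was -0.09 (SE 0.11, 95% interval -0.33 to 0.15). Without replicate 5 it was -0.04 and without replicate 6 it was -0.17. *Sox2* was the gene with the largest positive value. It had 1.06, 1.14, 1.01, 1.27, 1.29 and 1.24 in ΔJ replicates 1 to 6 (median 1.19) and 1.09, 0.96, 0.80, 1.20, 1.03 and 1.17 in wild-type replicates 1 to 6 (median 1.06). In 3 of 6 ΔJ mice, replicates 4 to 6, *Sox2* was above every wild-type mouse. The log2 fold change was 0.13 (SE 0.081, 95% interval -0.05 to 0.30), and 0.13 in replicates 4 to 6 and 0.12 in replicates 1 to 3. Without wild-type replicate 3, the lowest mouse, it was 0.08. With the replicate number as a block, the limma p of *Sox2* was 0.0487 without adjustment and 0.618 after it, in a fit where 7.9% of all probe sets reached an unadjusted p under 0.05. Sustentacular cells also express *Sox2*, and the mean level of 9 sustentacular markers was 2.83 to 3.00 in ΔJ and 2.77 to 2.98 in wild-type mice. As the arrays measured whole tissue, fewer cells of a type and less RNA per cell cannot be told apart for any of these genes.

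The genes of the neuronal precursors had genotype differences within the spread of the mice, which was wide for *Neurod1* but not for *Neurog1*. *Neurog1* had -0.66 to -0.26 in ΔJ mice (median -0.45) and -0.55 to -0.26 in wild-type mice (median -0.43), a log2 fold change of -0.04 (SE 0.085, 95% interval -0.23 to 0.14). *Neurod1* had -0.59 to 0.43 in ΔJ mice (median 0.15) and -0.35 to 0.32 in wild-type mice (median -0.01). With a log2 fold change of 0.07 (SE 0.17), *Neurod1* had the widest 95% interval of the 8 genes, -0.29 to 0.43. Its SD within genotypes was 0.31, larger than that of 91.1% of the 20754 probe sets annotated to a single gene other than an OR gene, whereas *Krt5* had 0.11, larger than 21.2% of them.

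**Figure D2:**
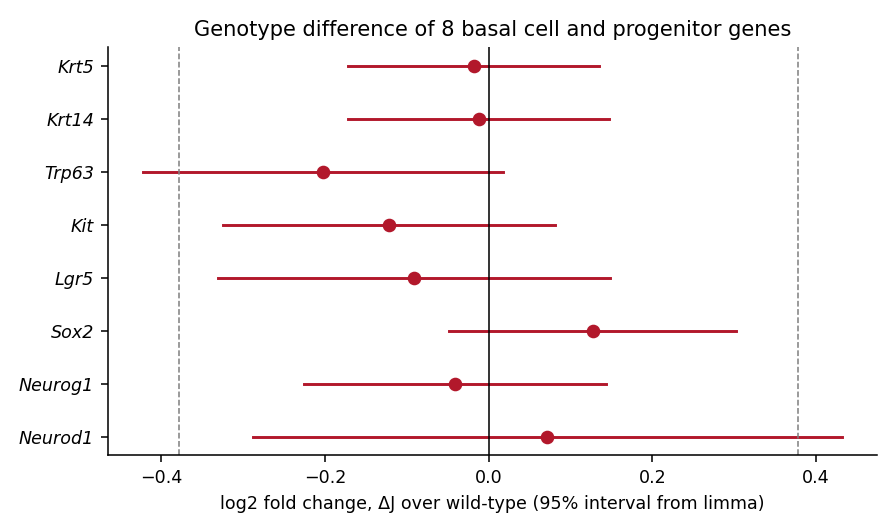
Log2 fold change, ΔJ over wild-type, of each gene (points) with its 95% interval from limma (lines, n = 6 mice per genotype), with dashed lines at a 1.3-fold change. All 8 intervals include 0, and the largest fold changes are -0.20 for Trp63 and 0.13 for Sox2.

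The levels of the 8 genes were also compared between array sets, between sexes and for single mice. Between replicates 4 to 6 and replicates 1 to 3, 3 of the 8 genes were called by limma with genotype in the fit, against 42.2% of all probe sets, so that the share of these genes was near that of the array as a whole. *Neurod1* averaged -0.20 ± 0.24 in replicates 4 to 6 and 0.26 ± 0.11 in replicates 1 to 3 (SD, n = 6 each), a difference of -0.46 (SE 0.10, adjusted p = 0.00461 in limma). *Neurog1* averaged -0.53 ± 0.11 in replicates 4 to 6 and -0.34 ± 0.093 in replicates 1 to 3, a difference of -0.19 (SE 0.062, adjusted p = 0.0309 in limma). *Sox2* went the other way, with 1.20 ± 0.094 in replicates 4 to 6 and 1.01 ± 0.12 in replicates 1 to 3, a difference of 0.19 (SE 0.056, adjusted p = 0.0172 in limma). For *Neurod1* alone of the 8 genes the ranges of the sets did not overlap, with -0.59 to 0.06 in replicates 4 to 6 and 0.10 to 0.43 in replicates 1 to 3, as was so for 23.3% of all probe sets. Within replicates 4 to 6, *Neurod1* had 0.02, -0.35 and -0.21 in the 3 mice of day 33 and 0.06, -0.59 and -0.11 in the 3 mice of day 30, which overlapped.

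**Figure D3:**
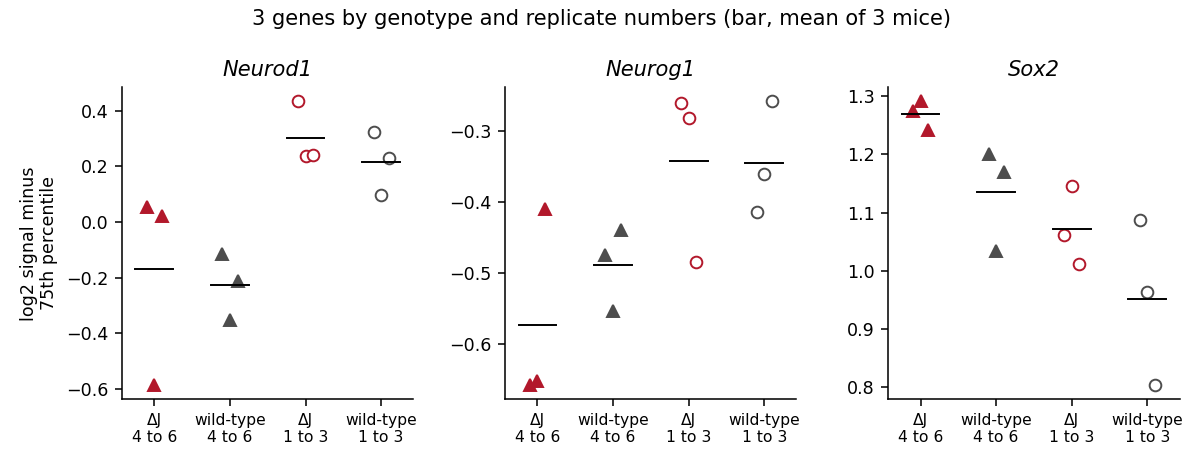
Level (log2 signal minus the 75th percentile of the array) of the 3 genes called between array sets, for ΔJ (red) and wild-type (grey) mice of replicates 4 to 6 (triangles) and 1 to 3 (open circles), with bars at the mean of 3 mice. In both genotypes the means of Neurod1 and Neurog1 are lower and that of Sox2 is higher in replicates 4 to 6, and the vertical ranges differ between panels.

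These set differences depended in part on scaling. The median difference over all probe sets was -0.10 with the percentile shift and 0.05 without any shift. Without the shift *Neurog1* was -0.05 and no longer called (adjusted p = 0.575), *Neurod1* and *Sox2* stayed called, and *Krt5*, *Kit* and *Lgr5* were called too, 5 genes in all, as were 14660 of all 35556 probe sets. Leaving out ΔJ replicate 5 also gave 5 called genes, *Krt14*, *Neurod1*, *Kit*, *Lgr5* and *Sox2*, and 16440 of all probe sets. *Neurog1* was not called without ΔJ replicate 1, 2, 4 or 5 or wild-type replicate 3 or 5 (log2 difference -0.18 to -0.16), while *Neurod1* and *Sox2* were called whichever mouse was left out.

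Sex made no called difference in these genes. Between 5 males and 7 females 0 of 8 were called, against 0.0141% of all probe sets, with a smallest adjusted p of 0.61. *Neurog1* alone passed an unadjusted p under 0.05, against 8.13% of all probe sets, with a mean of -0.35 ± 0.13 in males and -0.50 ± 0.11 in females and a log2 difference of 0.13 (adjusted p = 0.61 in limma with genotype and array set). For the interaction of genotype with array set or with sex, 0 of 8 genes passed an unadjusted p under 0.05, against 3.83% of all probe sets for array set and 3.4% for sex. With 3 mice per genotype in each set, the smallest were an unadjusted p of 0.0595 for *Kit* and of 0.0621 for *Trp63*, both for array set.

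ΔJ replicate 5, a female of day 30, was often the mouse with the lowest or the highest level. It had the lowest level of all 12 mice for 4 of the 8 genes, *Trp63*, *Neurod1*, *Kit* and *Lgr5*, and the highest for *Sox2*. It was next to the highest for the keratins, with 0.96 for *Krt5* and -1.13 for *Krt14*. Over those same 20754 probe sets wild-type replicate 3 was the highest mouse for 25.9% and ΔJ replicate 6 the lowest for 16.5%. ΔJ replicate 5 was the lowest for 21.7% and the highest for 18%. Its *Kit* level was -0.23, against -0.09 to 0.33 in the other 11 mice, and its *Neurod1* level -0.59, against -0.35 to 0.43. Its mean was the lowest for the 10 globose basal cell genes, 0.11, against 0.13 to 0.29 in the other mice, and for the 11 precursor genes, 0.43, against 0.48 to 0.61, lists that include some of the 8 genes. It also had the lowest mean of the 8 mature OSN markers, 3.26, against 3.40 to 3.52 in the other mice, and of the 7 immature OSN markers, 1.82, against 1.96 to 2.15. The lists of Notch, Wnt and Kit pathway genes and of microvillar and tuft cell markers also had their lowest means in this mouse. Sustentacular and melanocyte markers were next to the lowest in it. For the markers of respiratory epithelium and glands, mast cells and olfactory glia its mean lay inside the range of the other mice. Its mean was next to the highest for the 14 horizontal basal cell genes, -0.24, against -0.39 to -0.23. For the 20 cell cycle genes it was -0.80, inside the range of the other mice, -0.94 to -0.74. The mean of the 10 squamous markers was the highest in this mouse, -2.42, against -2.99 to -2.48. Without it the log2 fold change was 0.20 for *Neurod1* and -0.07 for *Kit*, and 0 of the 8 genes were called. The part of these marker levels in the values of the 8 genes was not tested.

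Correlations between the 8 genes had no common sign. Pearson's r between their levels was computed within each array set, over 6 mice of both genotypes, for 28 pairs, and 0 of the 56 tests passed after Benjamini-Hochberg adjustment (exact permutation, smallest adjusted p = 0.218). Of the pairs, 10 correlated positively in both sets, 11 negatively in both and 7 in opposite directions. The 2 keratins were among the last, with r = 0.71 in replicates 4 to 6 (p = 0.103, adjusted p = 0.36, exact permutation; Spearman's rho 0.66, p = 0.175) and r = -0.78 in replicates 1 to 3 (p = 0.0417, adjusted p = 0.311, exact permutation; rho -0.83, p = 0.0583). *Trp63* and *Kit* had r = 0.93 in replicates 4 to 6 and r = -0.91 in replicates 1 to 3 (both p = 0.0194, adjusted p = 0.218, exact permutation; rho 0.77 and -0.77, both p = 0.103). Leaving out the 2 mice farthest from the median *Trp63* level, the values of r were 0.90 in replicates 4 to 6 and -0.53 in replicates 1 to 3. For *Krt5* and *Krt14* without the 2 farthest mice they were 1.00 in replicates 4 to 6 and -0.95 in replicates 1 to 3. The opposite signs of these 2 pairs remained, but few mice were left. Other pairs with an unadjusted exact permutation p under 0.05 in replicates 4 to 6 differed. There *Kit* with *Lgr5* went from 0.83 to -0.40 and *Krt14* with *Lgr5* from -0.81 to 0.30, while *Neurog1* with *Lgr5* went from 0.91 to 0.96. In replicates 1 to 3 the other such pairs were *Krt5* with *Neurod1* and *Krt5* with *Lgr5*. The first had r = -0.85 (exact permutation p = 0.00694, adjusted p = 0.218) and -0.43 without the 2 farthest mice. The second had r = -0.96 (exact permutation p = 0.0194, adjusted p = 0.218) and -0.97 without them. Both pairs were negative in replicates 4 to 6 too, with r = -0.51 and -0.39.

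**Figure D4:**
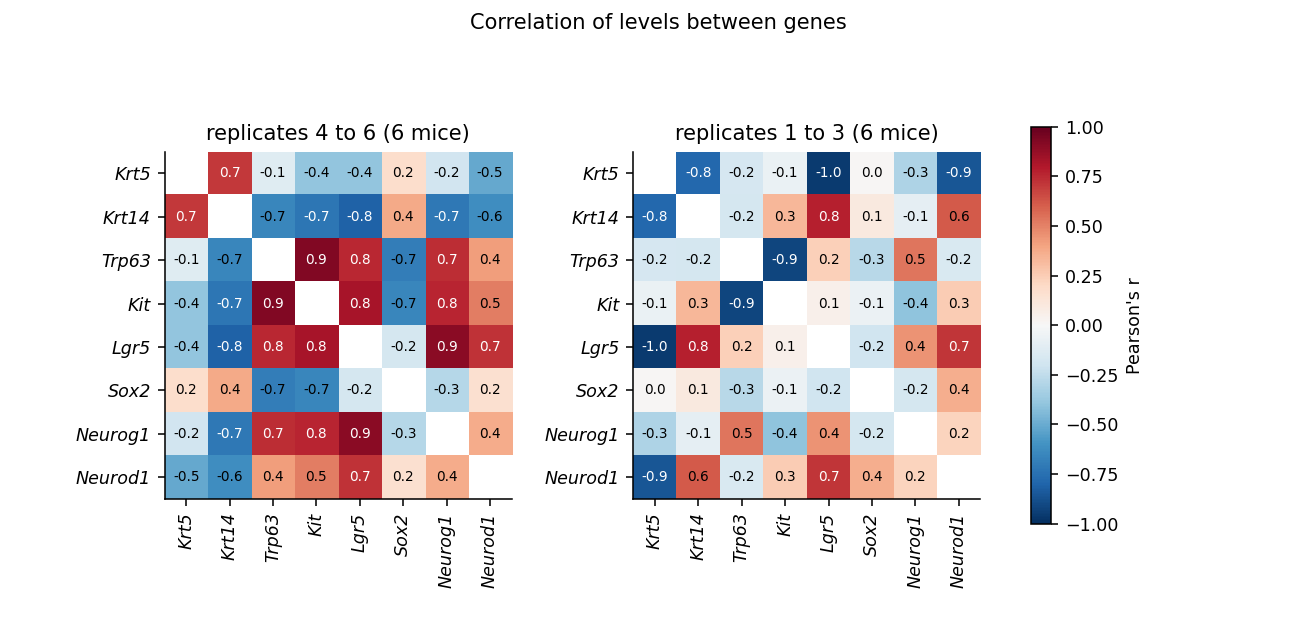
Pearson's r between the levels of each pair of the 8 genes over the 6 mice of replicates 4 to 6 and the 6 mice of replicates 1 to 3, both genotypes together, in red for positive and blue for negative r. The sign differs between the sets for 7 of the 28 pairs, such as Krt5 with Krt14 and Trp63 with Kit.

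The genes whose deviations followed those of the 8 most closely were sought among 19112 such probe sets with a mean level above that of *Kdm5d* in females. The measure was Pearson's r over the 12 arrays after subtracting the mean of each genotype in each array set, a description with no test. Each r is the highest of this wide search, so a high value can arise without any link between the genes. The closest for *Krt5* was *Bpifa1*, a secreted protein of airway glands (r = 0.94, and 0.85 between the levels themselves). It was *Cfap36* for *Krt14* (0.98, levels 0.63) and *Tox3* for *Trp63* (0.99, levels 0.82). It was *Kif1a*, a kinesin of axonal transport, for *Kit* (0.98, levels 0.94), *Adgrl1* for *Lgr5* (0.96, levels 0.93) and *Casd1* for *Neurod1* (0.98, levels 0.93). For *Neurog1* with *Fuz* (0.94, levels -0.25) and *Sox2* with *Cyp51*, an enzyme of cholesterol synthesis (0.99, levels 0.24), the likeness was absent or weak between the levels themselves. None of the 3 closest genes of any of the 8 was itself one of the 8.

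No other listed gene of the same cell types and pathways was called either. Of 92 listed genes of horizontal basal cells, globose basal cells, neuronal precursors, the cell cycle and the Notch, Wnt and Kit pathways, 87 were measured and 0 were called between the genotypes, against 0.135% of all probe sets. Their median log2 fold change was -0.02, against -0.03 for all probe sets, and 4 of 87 (4.6%) had an unadjusted limma p under 0.05, against 3.33% of all probe sets. That count was 1 without ΔJ replicate 5, wild-type replicate 2 or wild-type replicate 5, and 2 without ΔJ replicate 2, ΔJ replicate 4 or wild-type replicate 6.

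The 4 genes had levels that overlapped between the genotypes, and none passed adjustment. *Cd44*, an adhesion receptor for hyaluronan on basal cells, had -0.17 to 0.24 in ΔJ mice (median 0.10) and 0.13 to 0.51 in wild-type mice (median 0.34), a log2 fold change of -0.23 (adjusted p = 0.993 in limma). *Tubb3*, a tubulin of young neurons, had 0.11 to 0.62 in ΔJ mice (median 0.44) and -0.13 to 0.46 in wild-type mice (median 0.15), a log2 fold change of 0.26 (adjusted p = 0.993 in limma). *Sox11*, a transcription factor of neuronal precursors, had 1.42 to 1.52 in ΔJ mice (median 1.51) and 1.20 to 1.52 in wild-type mice (median 1.33), a log2 fold change of 0.15 (adjusted p = 0.993 in limma). *Stat5a*, a transcription factor that Kit can activate, had -1.51 to -1.33 in ΔJ mice (median -1.35) and -1.41 to -1.06 in wild-type mice (median -1.24), a log2 fold change of -0.15 (adjusted p = 0.993 in limma).

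Among these lists the medians lay close to that of all probe sets except for Wnt and R-spondin signalling. Members of the 8 are included in the basal cell, precursor, Kit signalling and Wnt lists. The median was -0.01 over 14 horizontal basal cell genes and -0.0036 over 10 globose basal cell genes. It was 0.01 over 11 precursor genes and 0.01 over 20 cell cycle genes, where *Mki67*, a protein of dividing cells, had -0.04 (95% interval -0.24 to 0.17) and *Top2a*, the topoisomerase of replicating DNA, 0.08 (-0.06 to 0.22). Over 16 Notch pathway genes the median was -0.01, with -0.01 for *Notch1* (-0.17 to 0.16). Over 11 Kit signalling genes it was -0.03, with -0.01 for *Kitl*, the ligand of Kit (-0.26 to 0.23).

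In the Wnt and R-spondin list, which includes *Lgr5*, 14 of 16 log2 fold changes were below 0, against 60.2% of all probe sets. The median was -0.10, but no gene of the list had an unadjusted limma p under 0.05. By sign alone some marker lists of other cell types leaned as far, but their medians were nearer 0. Below 0 were 8 of 8 microvillar and tuft cell genes (median -0.05) and 9 of 10 mast cell genes (median -0.06). Of 8 melanocyte genes 6 were below 0 (median -0.09), and of 6 glial genes 2 were (median 0.07). In mean level, 3 of the mast cell, 1 of the microvillar and tuft cell and 1 of the melanocyte genes lay below *Kdm5d* in females. *Lgr4*, a relative of *Lgr5*, had 0.08 (95% interval -0.09 to 0.24), and *Rnf43*, a ubiquitin ligase that removes Wnt receptors, had -0.19 (-0.40 to 0.03). The mean level of this list was -0.538, -0.672 and -0.413 in ΔJ replicates 4 to 6, each below the lowest wild-type mouse, -0.408. In ΔJ replicates 1 to 3 it was -0.377 to -0.353, inside the wild-type range of -0.408 to -0.306. This difference between the array sets was not tested for the list. Of 79 markers of other cell types 76 were measured, 0 were called, and 2 (2.63%, against 3.33% of all probe sets) had an unadjusted p under 0.05, *Sprr1b* of squamous epithelium with a log2 fold change of -0.31 and *Slc45a2* of melanocytes with -0.19.

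**Figure D5:**
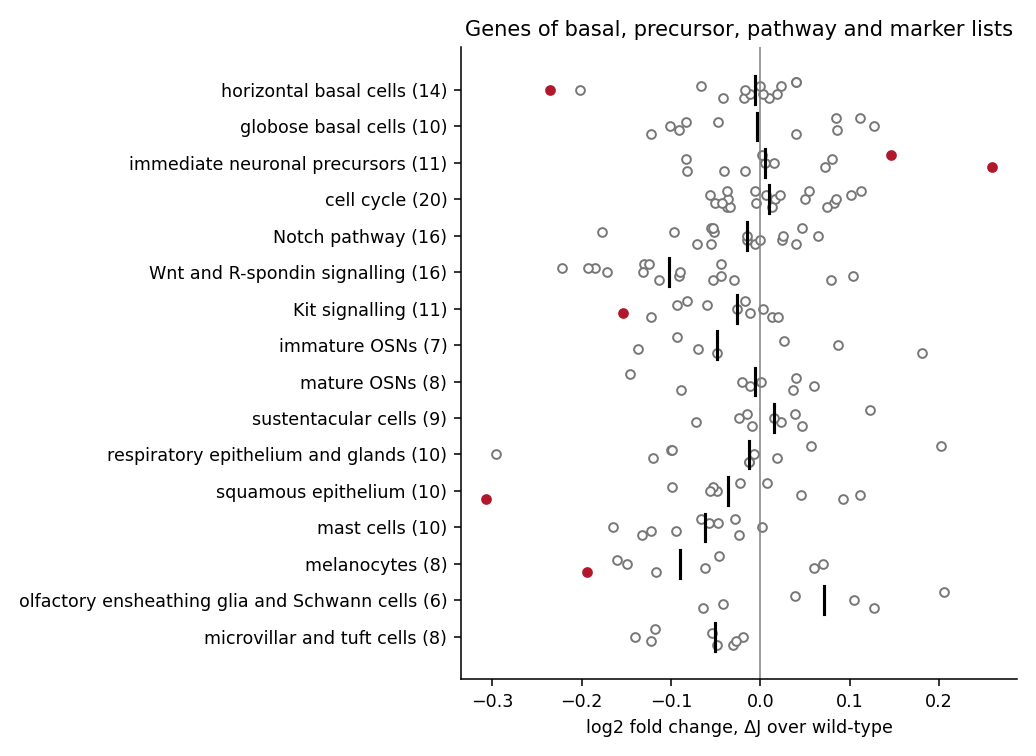
Log2 fold change, ΔJ over wild-type, of each measured gene of the lists (points, red where the unadjusted limma p was under 0.05, open otherwise) with the median of each list (black bar) and the number of measured genes in brackets; OSNs are olfactory sensory neurons, and some genes stand in more than 1 list. The points lie on both sides of 0 in most lists, and the Wnt and R-spondin list has the lowest median, -0.10.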

How the data were processed

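The deposited values are log2 signals of the authors for 35556 probe sets on each of the 12 arrays. Affymetrix Expression Console is the tool in the submitters' processing notes. Its version and the way it corrected background and summarized probes were not given in the sources used here. From these values the 75th percentile of each array was subtracted, following the methods of the study. Genotype (ΔJ minus wild-type) was fitted over all probe sets by lmFit and eBayes of limma 3.58.1 under R 4.3.3, with Benjamini-Hochberg adjustment over all 35556 probe sets and a threshold of 0.05. The steps were tested on simulated data. Sex was fitted with genotype and array set, and array set (replicates 4 to 6 minus 1 to 3) with genotype. Of 35556 probe sets, 21789 had 1 gene symbol in the platform annotation, 1621 several and 12146 none. A listed gene with several probe sets was represented by the one with the highest mean level. The number of arrays limits the precision.

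The 8 genes and the gene lists were chosen with earlier results of these data known. Named genes are the 8, the first 2 measured genes of each list and its gene with the smallest p, with the 3 genes most like each of the 8, of which the text names those it uses. *Sox11* is named outside this rule because it completes the count of 4 listed genes, and was chosen after its values were seen.

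Genotype and replicate numbers come from the labels. Deviations from the genotype means of same-numbered mice correlated at 0.365, 0.294, 0.419, 0.441, 0.185 and 0.385 in the order of the numbers. As each exceeded 0.1, a blocked fit by replicate number was run beside the unblocked main one. After the mean of each array set was removed the correlations were -0.14 to 0.08, so the positive correlations went with the array set. The study describes littermates, but no source says which mice share a litter. No 2 arrays held identical values.

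Alternatives covered the shift, quantile normalization, a filter on dim probe sets, the replicate and array set as blocks, sex and age as covariates, subsets of the mice, an intensity trend, an exact permutation test and leaving out each mouse.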

Additional observations from a re-analysis of the deposited data

Results flagged for a closer look

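Among 43 named genes, 86 groups of 6 mice were examined for a single mouse far from the others, and 2 were found, fewer than the 1 in 20 groups that chance would flag. *Krt5* was high in wild-type replicate 6, with a level of 1.03 against 0.71 to 0.81 in the other 5 wild-type mice, a gap of 0.689 of the whole range. The same mouse had the highest mean of the 10 respiratory epithelium and gland markers, 2.49, whose part in the *Krt5* level was not tested. *Rnf43*, the ubiquitin ligase of the Wnt list, was low in ΔJ replicate 5, with -0.62 against -0.20 to -0.06 in the other 5 ΔJ mice, a gap of 0.755 of the range.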

How the results depend on the processing

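Under every alternative that gave adjusted p-values, which the exact permutation test did not, 0 of the 8 genes were called between the genotypes. The number at an unadjusted p under 0.05 was 0, against 3.33% of all probe sets in the main fit, except as follows. It was 1 (*Sox2*) with a replicate block or the array set as a block, against 7.9% and 8.04% of all probe sets. It was 1 (*Trp63*) with sex as a covariate or in replicates 4 to 6 only, against 5.23% and 7.15%. It was 0 to 1 when a mouse was left out, 1 without ΔJ replicate 1 (*Trp63*), against 3.83% of all probe sets. The replicate block changed no adjusted call among the 8. It raised the number of all probe sets at an unadjusted p under 0.05 to 2810, against 1185 without it, while 51 and 48 were called. The exact permutation test gave p = 0.0303 for *Trp63* at the same log2 fold change of -0.20. Fold changes near 0 changed sign. *Krt14* was 0.000527 without a shift, 0.0303 after subtracting the median, 0.0157 with quantile normalization and 0.0215 in replicates 4 to 6. *Krt5* was 0.024 after subtracting the median, 0.0461 in mice of day 30 and 0.00518 in replicates 1 to 3. *Neurog1* was 0.00142 after subtracting the median and 0.00245 in replicates 1 to 3, *Kit* was 0.0313 in replicates 1 to 3, and *Neurod1* was -0.0573 in mice of day 30. Leaving out each mouse gave -0.0373 to 0.0335 for *Krt14*, -0.0532 to 0.0266 for *Krt5* and -0.00155 to 0.203 for *Neurod1*. For *Neurog1* between array sets it gave -0.219 to -0.164, and without a shift the difference was -0.0464. The count of listed genes at an unadjusted p under 0.05 was 4, and 1 in mice of day 30, 0 in replicates 1 to 3 and 1 to 5 when a mouse was left out. The causes of these shifts were not tested.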
